A study of Sus scrofa with 15 samples.

Results

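The genes described here are those of mitochondrial fatty acid oxidation, with the carnitine palmitoyltransferase 1 (CPT1) family, in subcutaneous backfat of Iberian pigs. They were chosen by symbol: CPT1A, CPT1B, CPT1C, CPT2, ACADM, ACADL, ACADVL, HADHA, HADHB and ACACB. Of these 10 genes, 9 were matched by Ensembl identifier to the 30477 genes of the count files, and all 9 were among the 14918 genes that passed the filter on low counts. ACACB, which makes malonyl-CoA, was not analysed here. Each of 15 pigs gave 1 RNA-seq library from a biopsy of dorsal lumbar backfat, with 5 pigs on each of 3 diets. Pigs of the C group ate a compound feed, pigs of the DOP group ate a compound feed that contained dry olive pulp, and pigs of the WCOC group ate a compound feed without by-product plus free access to a silage of crude olive cake and barley straw. Each diet was fed in a pen of its own, and the 5 pigs per diet were picked by the amount and quality of their RNA. According to the paper, compound feed was restricted, to a larger share of free energy intake in C than in DOP and WCOC. Diet, pen and feeding level therefore cannot be told apart, and the error of each test is the spread between pigs.

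Long-chain fatty acids enter mitochondria bound to carnitine. CPT1, in the outer membrane, makes the acylcarnitine and is inhibited by malonyl-CoA, and CPT2, in the inner membrane, turns it back into acyl-CoA. CPT1A is known as the liver isoform, CPT1B as the muscle isoform, which adipocytes also use, and CPT1C as a neuronal isoform. In the matrix, acyl-CoA dehydrogenases take the first step of each cycle, and the trifunctional protein, built of HADHA and HADHB, takes the remaining steps for long chains. Backfat mostly makes and stores fat, and this pathway runs beside that machinery.

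Libraries held between 22373715 and 34745218 counts on genes, which were 67.2% to 76.6% of the read pairs in each file. The adipocyte markers, all 10 of which were tested, summed to between 17086 and 22487 CPM in C, 19873 and 25976 CPM in DOP and 18149 and 26200 CPM in WCOC, where CPM is the count of a gene relative to the library size after TMM scaling. By their run identifiers, 9 libraries (4 of C and all of WCOC) came from one flow cell, called A here, and 6 libraries (C replicate 5 and all of DOP) came from another, called B. WCOC and DOP libraries shared no flow cell, so that for them flow cell and diet cannot be told apart other than through C replicate 5. By the same identifiers, flow cell A libraries were on lane 2, except WCOC replicates 4 and 5 on lane 8. All libraries of flow cell B were on lane 8. The part of lane in the results was not tested.

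Skeletal muscle transcripts differed greatly between biopsies. ACTA1, the actin of skeletal muscle, was at 1357, 14.9, 1883, 108 and 37.5 CPM in C replicates 1 to 5. In DOP it was at 12.6, 6543, 112, 3238 and 23994 CPM, and in WCOC at 116, 48.3, 5.75, 377 and 26.1 CPM. The 5 libraries above 1000 CPM were 2 of C and 3 of DOP, and none was of WCOC. Of 22 muscle markers listed, 15 were matched, 14 were tested and 1 (TNNI2) was at 0 in every library. Their summed level ranged from 56.1 to 4929 CPM in C, from 42.6 to 59570 CPM in DOP and from 23.6 to 907 CPM in WCOC. Between WCOC and DOP, 9 of the 14 were lower in WCOC by the limits for differential expression given with the comparisons. By the same limits 1 of the 10 adipocyte markers (ADIPOQ) was higher in WCOC than in C, and 2 (LEP and PLIN4) were higher in WCOC than in DOP. Of all tested genes, 6.25% passed these limits between WCOC and C and 7.76% between WCOC and DOP. The adipocyte markers went both ways, with a log2FC below 0 for 3 of the 10 against C and 4 against DOP. Of the latter, 1 had an adjusted p under 0.05 but a log2FC under the size limit. The 9 macrophage markers summed to between 266 and 800 CPM in C, 184 and 461 CPM in DOP and 129 and 341 CPM in WCOC, and 5 of them were lower in WCOC than in C. Of 7 endothelial markers 6 were tested, and their summed level ran from 909 to 1127 CPM in C, 1178 to 1525 CPM in DOP and 969 to 1616 CPM in WCOC. All DOP libraries thus lay above all C libraries in the endothelial sum, of which PECAM1 was the largest part. Of the 6 genes, only PECAM1 did not overlap between DOP and C by itself, as 3.47% of all tested genes did not. By the same limits 0 of the 6 differed, and 1 had a log2FC below 0. The part of these cell types in the results was not tested. Muscle is rich in CPT1B and in oxidation enzymes, so these levels are set beside the results. In bulk tissue, fewer cells of a type and less RNA per cell cannot be told apart.

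HADHA and HADHB lie head to head on chromosome 3 of the Sscrofa11.1 assembly, HADHA at chr3:112753343-112797627 on the forward strand and HADHB at chr3:112712894-112753121 on the reverse strand. The 221 bases between their annotated starts are shown because both genes begin there and their levels moved together.
HADHA and HADHB, chr3:112753122-112753342, forward strand: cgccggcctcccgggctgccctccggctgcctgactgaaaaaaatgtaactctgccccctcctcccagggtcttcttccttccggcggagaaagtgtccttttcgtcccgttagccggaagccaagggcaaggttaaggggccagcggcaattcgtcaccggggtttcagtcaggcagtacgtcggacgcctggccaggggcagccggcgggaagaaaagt
The stretches before CPT1A, CPT1C and ACADM are shown because these genes differed between diets, and capitals mark matches of the motifs searched.
CPT1A, chr2:4250392-4250641, forward strand: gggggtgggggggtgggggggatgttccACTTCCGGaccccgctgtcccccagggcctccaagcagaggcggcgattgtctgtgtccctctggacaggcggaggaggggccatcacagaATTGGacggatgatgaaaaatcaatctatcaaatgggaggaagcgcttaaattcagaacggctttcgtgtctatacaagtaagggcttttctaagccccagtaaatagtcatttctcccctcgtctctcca
CPT1C, chr6:54732539-54732700, forward strand: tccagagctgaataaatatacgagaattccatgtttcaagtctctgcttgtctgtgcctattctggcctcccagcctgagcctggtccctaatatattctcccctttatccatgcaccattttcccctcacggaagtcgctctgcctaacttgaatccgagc
ACADM, chr6:137575545-137575794, reverse strand: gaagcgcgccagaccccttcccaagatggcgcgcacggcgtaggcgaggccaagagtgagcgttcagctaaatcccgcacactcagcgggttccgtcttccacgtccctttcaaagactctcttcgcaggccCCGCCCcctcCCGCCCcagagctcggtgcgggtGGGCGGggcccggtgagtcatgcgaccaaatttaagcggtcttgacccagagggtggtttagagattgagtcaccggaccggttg
The sequences are those of RefSeq for Sscrofa11.1 and end at the base before the annotated start. For CPT1C only the 162 bases that separate it from its neighbour ADM5 are given. Both strands were searched for the DR1 element bound by PPAR with RXR (AGGTCA, any 1 base, AGGTCA), TCAAGGTCA (the element of the estrogen-related receptors), AGGTCA alone (which lies within both of these), GGGCGG (the SP1 box), the NRF1 element (GCGCA, any 1 base, GCGC), CCAAT and CCGGAAGT (ETS factors). CPT1A held 1 CCAAT match 131 bases and 1 CCGGAAGT match 222 bases before its start. ACADM held 3 GGGCGG matches, 118, 108 and 85 bases before its start. No match lay between HADHA and HADHB or before CPT1C. Of 19556 windows of 250 bases before annotated genes, 45.9% held GGGCGG, 31.9% held CCAAT and 2.87% held CCGGAAGT. The matches describe letters and not binding.

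Levels of the 9 genes were compared with each other only per kb of annotated exon. Exon lengths were those of RefSeq, whereas reads were counted by Ensembl gene, so levels per kb depend on lengths from another annotation. ACADL was the highest of the 9 genes at 83.8 ± 14.01 CPM per kb (SD, n = 15), followed by HADHB at 73.7 ± 16.9 and ACADM at 64.1 ± 14.01. HADHA stood at 52.3 ± 10.9 CPM per kb and ACADVL at 30.0 ± 7.37. The transferases were lower, with CPT1B at 15.8 ± 3.78 CPM per kb, CPT2 at 15.7 ± 2.16 and CPT1A at 9.47 ± 2.21. CPT1C, at 0.546 ± 0.281 CPM per kb, was the only gene whose libraries did not overlap those of its neighbour in this order.

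**Figure D1:**
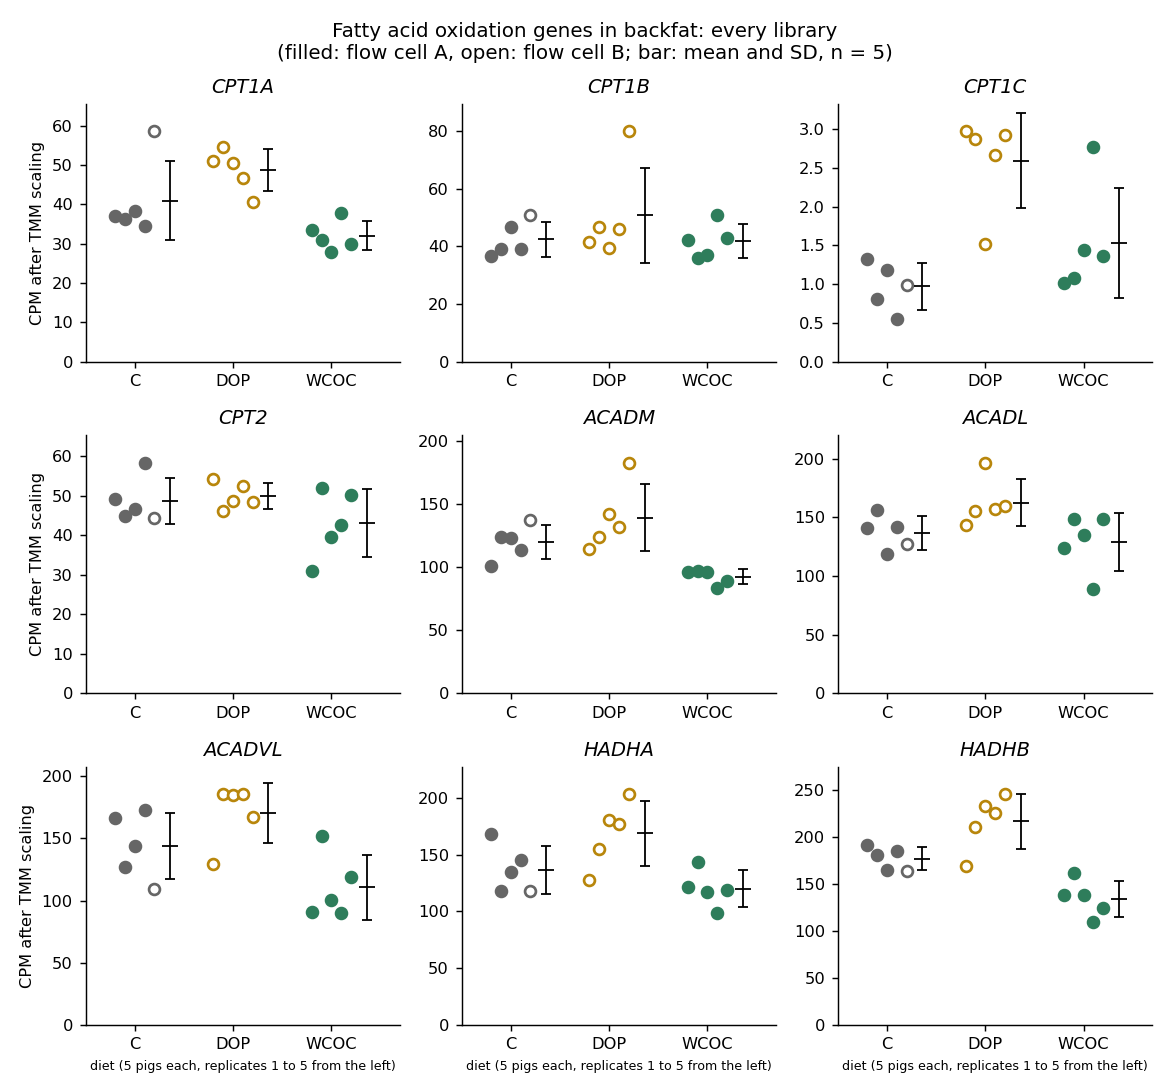
CPM after TMM scaling of 9 fatty acid oxidation genes, 1 point per library and 1 panel per gene, with filled points for flow cell A, open points for flow cell B and bars for the mean and SD of 5 libraries per diet. For HADHB all 5 WCOC points, at most 161 CPM, lie under all 5 C points, the lowest of which is 163 CPM.

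Between DOP and C, 1 of the 9 genes was a differentially expressed gene (DEG), and it was CPT1C. A DEG had an adjusted p under 0.05 in edgeR's quasi-likelihood test and a log2FC past 0.58 in either direction. Of all tested genes 0.764% were DEGs in this comparison and 0.215% were DEGs higher in DOP. Between WCOC and C, 0 of the 9 genes were DEGs, 4 had an unadjusted p under 0.05 (26.4% of all genes did), DESeq2 also called 0, and 6.25% of all genes were DEGs. Between WCOC and DOP, 4 of the 9 genes (CPT1A, ACADM, ACADVL and HADHB) were DEGs, all lower in WCOC, against 7.76% of all genes in either direction and 5.11% lower in WCOC. All 9 log2FC were above 0 between DOP and C (median 0.25, all tested genes 0.011), where 47.8% of all genes were below 0, and all 9 were below 0 between WCOC and DOP (median -0.59, all tested genes 0.00067), where 49.9% of all genes were. The comparisons share libraries, and the 9 genes are not independent of each other.

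**Figure D2:**
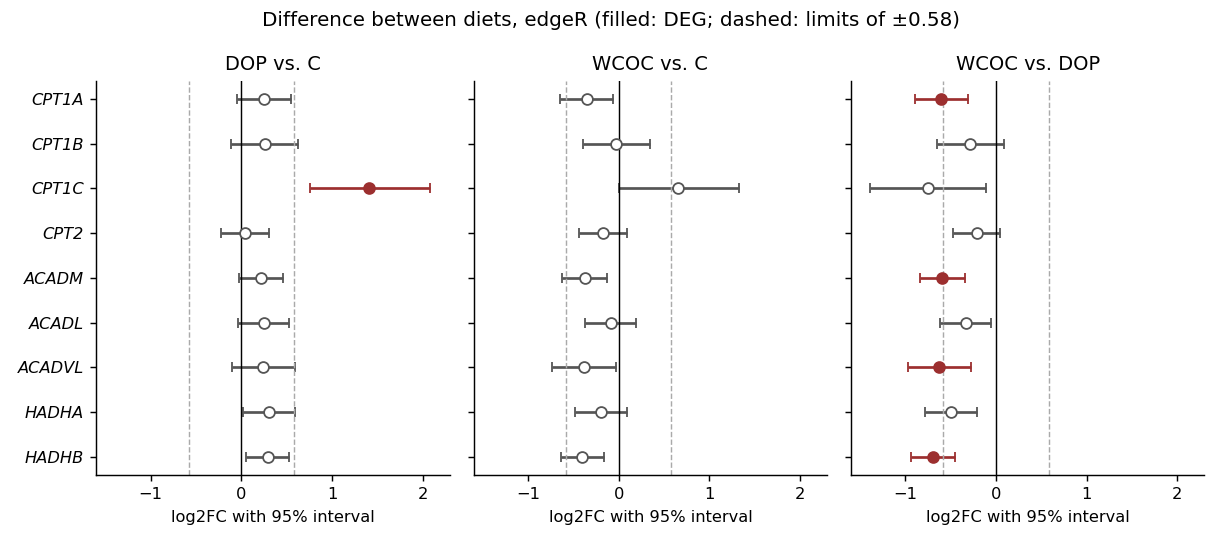
log2FC of 9 fatty acid oxidation genes in the 3 comparisons, as points with 95% confidence intervals, filled where the gene was a DEG, with dashed lines at the limits of 0.58. CPT1C is filled between DOP and C, and CPT1A, ACADM, ACADVL and HADHB are filled between WCOC and DOP.

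CPT1A (ENSSSCG00000012880, chr2:4250642-4293914, forward strand), the isoform of liver and many other tissues, was lower in WCOC than in DOP. Its level was 37.0, 36.4, 38.4, 34.4 and 58.6 CPM in C replicates 1 to 5. DOP libraries held 51.0, 54.5, 50.6, 46.8 and 40.7 CPM, and WCOC libraries held 33.5, 30.9, 28.0, 37.7 and 30.0 CPM. The highest WCOC library was under the lowest DOP library, while C replicates 1 to 4 lay below every DOP library and C replicate 5 above every one. The means were 40.9 ± 9.96 CPM in C, 48.7 ± 5.27 CPM in DOP and 32.0 ± 3.74 CPM in WCOC (SD, n = 5 each). WCOC was lower than DOP by a log2FC of -0.60 (SE 0.14, 95% interval -0.90 to -0.31, adjusted p = 0.0145). The log2FC was 0.25 between DOP and C (adjusted p = 0.369) and -0.35 between WCOC and C (adjusted p = 0.118).

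The C libraries of CPT1A split by flow cell. On flow cell A the 4 C libraries averaged 36.5 ± 1.65 CPM and the 5 WCOC libraries 32.0 ± 3.74 CPM. On flow cell B the lone C library was at 58.6 CPM, above the highest DOP library. With flow cell as a covariate the log2FC between WCOC and DOP turned to 0.077 (adjusted p = 0.878) and that between DOP and C to -0.27, and this fit rests on C replicate 5 alone. The call also ended, on the size limit, without DOP replicate 2 (-0.56) or WCOC replicate 3 (-0.56).

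CPT1B (ENSSSCG00000022364, chr5:155552-163536, forward strand), the muscle isoform, did not pass the test in any comparison. It was at 36.7, 39.0, 46.8, 39.0 and 50.7 CPM in C replicates 1 to 5. In DOP the values were 41.6, 46.6, 39.5, 46.1 and 79.8 CPM, and in WCOC 42.1, 36.1, 37.0, 50.7 and 42.7 CPM. The diets overlapped, and DOP replicate 5, the library with the most ACTA1, stood above all the others. The log2FC was 0.26 between DOP and C (95% interval -0.11 to 0.63, adjusted p = 0.476), -0.025 between WCOC and C (-0.39 to 0.34, adjusted p = 0.948) and -0.28 between WCOC and DOP (-0.65 to 0.087, adjusted p = 0.312). With the muscle level as a covariate the first was 0.10, and without the 5 libraries rich in ACTA1 it was -0.088.

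CPT1C (ENSSSCG00000024872, chr6:54732701-54747706, forward strand), the neuronal isoform, was the rarest of the 9 genes, with 14 to 87 counts per library. It was at 1.32, 0.812, 1.18, 0.545 and 0.994 CPM in C replicates 1 to 5. The DOP libraries held 2.97, 2.87, 1.51, 2.67 and 2.93 CPM, and the WCOC libraries 1.01, 1.09, 1.44, 2.76 and 1.36 CPM. Every DOP library was above every C library, and WCOC replicate 4 was the only library of its diet within the DOP range. DOP exceeded C by a log2FC of 1.41 (SE 0.31, 95% interval 0.75 to 2.08, adjusted p = 0.0473), with means of 2.59 ± 0.613 and 0.971 ± 0.306 CPM (SD, n = 5 each). In the library on flow cell B, C replicate 5 was at 0.994 CPM, within the range of the other C libraries. The call was close to the limit and held in 1 of 10 fits that left out a library of either diet (adjusted p 0.0358 to 0.114, log2FC 1.26 to 1.55), namely the fit without C replicate 1. Of 11 other alternatives it held in 5, DESeq2 among them, which called 2.27% of all genes it fitted. The paper, which used DESeq2, listed CPT1C among its genes of DOP against C, under AMPK signalling. WCOC differed from C by a log2FC of 0.66 (adjusted p = 0.190) and from DOP by -0.75 (adjusted p = 0.115), which became -1.06 and a DEG without WCOC replicate 4 (adjusted p = 0.0344). Of 9 nerve and Schwann cell markers 5 were tested, and their summed level ranged from 64.6 to 111 CPM in C, 61.2 to 139 CPM in DOP and 88.7 to 227 CPM in WCOC. Their part in the result was not tested.

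Per kb of exon, CPT1B made up the larger share of CPT1 in every library. This depends on the RefSeq exon lengths used, 4.284 kb for CPT1A and 2.849 kb for CPT1B. In CPM without length, CPT1A was above CPT1B in C replicates 1 and 5 and DOP replicates 1 to 4, and below it in all others. Of the summed level of the 3 isoforms per kb, CPT1B took 60.4 ± 3.11% in C, 58.3 ± 8.38% in DOP and 64.7 ± 1.51% in WCOC (SD, n = 5 each). CPT1A took 38.3 ± 3.12%, 38.9 ± 8.26% and 33.2 ± 1.76%, and CPT1C took 1.28 ± 0.445%, 2.79 ± 0.637% and 2.13 ± 0.699%. The DOP spread came mainly from replicate 5, where CPT1B took 72.9%. Shares were not tested.

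**Figure D3:**
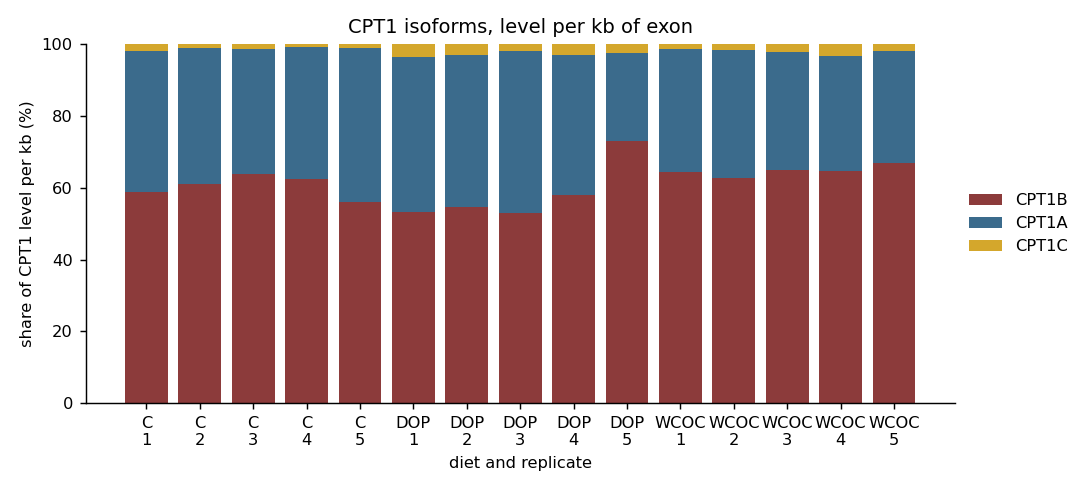
Share of the summed CPT1 level per kb of exon taken by CPT1B, CPT1A and CPT1C, as stacked bars that reach 100%, 1 bar per library ordered by diet and replicate. CPT1B is the larger part of every bar and takes 72.9% in DOP replicate 5, and CPT1C is at most 3.48%.

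CPT2 (ENSSSCG00000003851, chr6:159038129-159061327, reverse strand), the inner membrane transferase, did not pass the test in any comparison. It was at 49.1, 44.7, 46.6, 58.3 and 44.4 CPM in C replicates 1 to 5. DOP libraries held 54.2, 46.1, 48.6, 52.4 and 48.3 CPM, and WCOC libraries held 31.0, 52.0, 39.6, 42.7 and 50.3 CPM. The 3 diets overlapped, and WCOC replicate 1 was the lowest library. The log2FC was 0.038 between DOP and C (95% interval -0.22 to 0.30), -0.17 between WCOC and C (-0.44 to 0.087) and -0.21 between WCOC and DOP (-0.47 to 0.049), with adjusted p of 0.911, 0.387 and 0.281.

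Among the acyl-CoA dehydrogenases, ACADM and ACADVL were lower in WCOC than in DOP, and ACADL did not pass the test. ACADM (ENSSSCG00000003776, chr6:137541481-137575544, reverse strand), the medium-chain enzyme, was at 101, 124, 123, 114 and 137 CPM in C replicates 1 to 5. DOP libraries held 114, 124, 143, 132 and 183 CPM, and WCOC libraries held 96.0, 97.3, 96.1, 83.5 and 89.2 CPM. All 5 WCOC libraries were below every library of both other diets. The log2FC of ACADM between WCOC and DOP was -0.59 (SE 0.12, 95% interval -0.84 to -0.35, adjusted p = 0.00703), and between WCOC and C it was -0.38 (SE 0.12, adjusted p = 0.0508). Within flow cell A alone the latter was -0.33, and with flow cell as a covariate the former was -0.34 (adjusted p = 0.507). The call between WCOC and DOP sat at the size limit and ended without DOP replicate 5 (-0.48), WCOC replicate 4 (-0.55) or WCOC replicate 5 (-0.58), each with an adjusted p under 0.05.

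ACADVL (ENSSSCG00000017947, chr12:52573521-52581755, forward strand), the very-long-chain enzyme, was at 167, 127, 144, 173 and 110 CPM in C replicates 1 to 5. DOP libraries held 129, 185, 185, 186 and 167 CPM, and WCOC libraries held 91.1, 152, 100, 89.8 and 119 CPM. WCOC replicate 2 was above DOP replicate 1, so the groups overlapped. The log2FC of ACADVL between WCOC and DOP was -0.63 (SE 0.16, 95% interval -0.98 to -0.28, adjusted p = 0.0262). It was -0.38 between WCOC and C (adjusted p = 0.153) and 0.24 between DOP and C (adjusted p = 0.474). The call held in 5 of 10 fits without a library and ended without DOP replicate 2 or 4 or without WCOC replicate 1, 3 or 4 (adjusted p up to 0.0653). Its locus overlaps DLG4, MIR324 and DVL2 on the other strand. According to the paper, the alignment was set for reads of a strand-specific protocol. Whether the counting used strand is not given in the sources used here, so the level of ACADVL is uncertain.

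ACADL (ENSSSCG00000016156, chr15:112935631-112969381, reverse strand), the long-chain enzyme, was at 141, 157, 119, 142 and 127 CPM in C replicates 1 to 5. DOP libraries held 143, 155, 196, 157 and 159 CPM, and WCOC libraries held 123, 148, 135, 88.7 and 148 CPM. All diets overlapped. Its log2FC was 0.25 between DOP and C (95% interval -0.036 to 0.53, adjusted p = 0.357), -0.090 between WCOC and C (-0.37 to 0.19, adjusted p = 0.706) and -0.33 between WCOC and DOP (-0.62 to -0.053, adjusted p = 0.111). DOP replicate 3 was the highest library and WCOC replicate 4 the lowest.

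HADHB (ENSSSCG00000008569), the thiolase subunit of the trifunctional protein, had the smallest adjusted p of the 9 genes between WCOC and DOP. It was at 191, 181, 165, 185 and 163 CPM in C replicates 1 to 5. In DOP it was at 169, 211, 232, 225 and 245 CPM, and in WCOC at 138, 161, 138, 110 and 124 CPM. All 5 WCOC libraries were below all libraries of C and of DOP. WCOC was lower than DOP by a log2FC of -0.69 (SE 0.11, 95% interval -0.93 to -0.45, adjusted p = 0.00280), and lower than C by -0.40 (SE 0.11, adjusted p = 0.0357). The second passed the limit on the adjusted p but not that on size, as 1 of the 9 genes, and 10% of all tested genes had an adjusted p under 0.05 at any size. The call between WCOC and DOP held in all 10 fits without a library. Within flow cell A alone, WCOC differed from C by -0.44 (adjusted p = 0.0564), with WCOC replicates 4 and 5 on another lane than the rest.

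HADHA (ENSSSCG00000008571), the hydratase and dehydrogenase subunit, was at 169, 118, 135, 145 and 118 CPM in C replicates 1 to 5. DOP libraries held 128, 155, 181, 177 and 203 CPM, and WCOC libraries held 122, 144, 117, 98.1 and 119 CPM. WCOC and DOP overlapped through DOP replicate 1 and WCOC replicate 2, and C overlapped both. The log2FC of HADHA between WCOC and DOP was -0.49 (SE 0.14, adjusted p = 0.0306), under the size limit, so that 5 of the 9 genes and 12.3% of all genes passed at any size in this comparison. Without DOP replicate 1 it was -0.58 and a DEG (adjusted p = 0.0129). It was 0.30 between DOP and C (adjusted p = 0.258) and -0.19 between WCOC and C (adjusted p = 0.389). HADHA and HADHB followed each other more closely than any other pair of the 9 genes (Pearson r = 0.90 over 15 libraries, 0.87 centred within diets, as a description). Per kb of exon, C libraries had a ratio of HADHB to HADHA of 1.49 ± 0.176, DOP libraries of 1.47 ± 0.0644 and WCOC libraries of 1.27 ± 0.0553 (SD, n = 5 each). The ratio was not tested.

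Groups that did not overlap were found for 1 of the 9 genes between DOP and C, 2 between WCOC and C and 3 between WCOC and DOP, against 3.47%, 7.62% and 8.90% of all tested genes. With flow cell as a covariate, 0 of the 9 genes and 1 of all genes were DEGs between WCOC and DOP (edgeR, with an unadjusted p under 0.05 for 3 of the 9 and 13.9% of all genes). The log2FC in that fit went both ways. It was larger in size than in the main fit for ACADVL (-1.10), HADHB (-0.84), HADHA (-0.76), ACADL (-0.47) and CPT2 (-0.38). For CPT1A (0.077), CPT1B (0.045) and ACADM (-0.34) it was smaller in size. With the muscle level as a covariate, CPT1A (-0.65, adjusted p = 0.0348) and HADHB (-0.63, adjusted p = 0.0158) stayed DEGs between WCOC and DOP, and ACADM (-0.54) and ACADVL (-0.51) did not. Without the 5 libraries rich in ACTA1, which left 3 C, 2 DOP and 5 WCOC libraries, edgeR called 0 of the 9 genes in each comparison (with an unadjusted p under 0.05 for 1 between DOP and C, 4 between WCOC and C and 4 between WCOC and DOP, against 5.59%, 19.1% and 11.9% of all genes in that fit). There the log2FC between WCOC and DOP was -0.67 for CPT1A, -0.48 for ACADM, -0.51 for ACADVL and -0.59 for HADHB.

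Across the 15 libraries, CPT1B and HADHA passed the test of Pearson's r with the muscle level, which is the mean log2 CPM of the 14 muscle markers, and neither passed that of Spearman's rho after adjustment. The Pearson r of CPT1B was 0.63 (permutation p = 0.00762, two-sided, adjusted over the 9 relations 0.0407) and its Spearman rho was 0.49 (permutation p = 0.0683, adjusted 0.154). Without DOP replicates 2 and 5, the libraries farthest from the median muscle level, r was 0.32, so the relation of CPT1B rests on them. For HADHA, r was 0.65 (permutation p = 0.00905, adjusted 0.0407), rho was 0.64 (permutation p = 0.0123, adjusted 0.111), and r was 0.48 without those libraries. Centred within diets, r was 0.56 for CPT1B and 0.49 for HADHA, and neither passed (adjusted permutation p = 0.356 for both). The others did not pass: r was 0.54 for ACADVL and for HADHB (adjusted permutation p = 0.0859 for both), 0.48 for ACADM, 0.47 for CPT1C, 0.30 for CPT1A, 0.12 for CPT2 and 0.042 for ACADL.

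**Figure D4:**
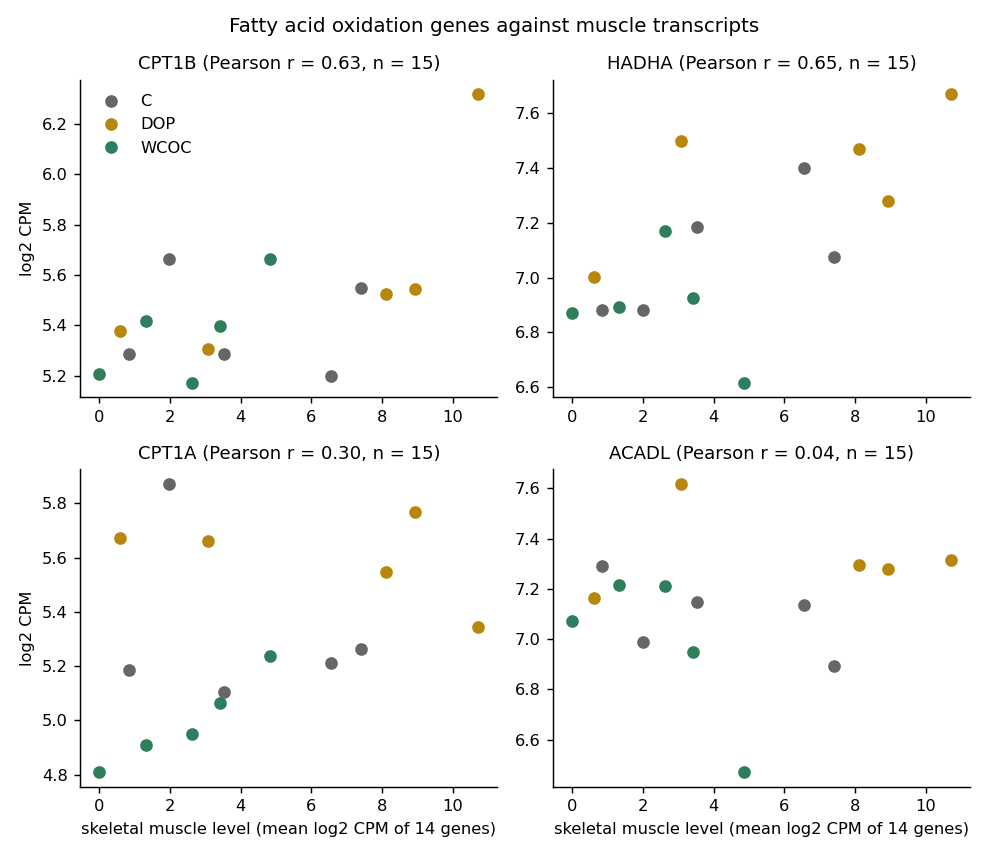
log2 CPM of CPT1B, HADHA, CPT1A and ACADL against the muscle level (mean log2 CPM of 14 muscle markers), 1 point per library coloured by diet. CPT1B (r = 0.63) is highest in the DOP library at the right edge, and ACADL (r = 0.04) shows no slope.

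The other genes of the pathway were taken from 8 lists by role. Of 44 genes listed, 39 were matched and 36 tested, and ECH1 and ETFB were at 0 in every library. Between DOP and C, 0 of the 36 were DEGs by edgeR (0.764% of all genes were), and 8 had an unadjusted p under 0.05, as did 17.6% of all genes. DESeq2 called 3 in this comparison and 2.27% of all genes it fitted. Between WCOC and C 3 of the 36 were DEGs, against 6.25% of all genes, and between WCOC and DOP 5 were, against 7.76%. The median log2FC was 0.084, -0.14 and -0.28 in the order DOP and C, WCOC and C, WCOC and DOP.

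In the peroxisome, where very long chains are shortened, 11 genes were tested. ABCD2 (ENSSSCG00000000781), a peroxisomal transporter of very-long-chain acyl-CoA, was at 25.9 to 65.1 CPM in C, 30.8 to 64.7 CPM in DOP and 60.2 to 116 CPM in WCOC. WCOC was higher than C by 1.09 (SE 0.26, adjusted p = 0.0175) and higher than DOP by 0.96 (SE 0.26, adjusted p = 0.0271). The call of ABCD2 against DOP ended without DOP replicate 2 or 4 or WCOC replicate 1, 4 or 5 (adjusted p up to 0.0660). CAT, the catalase that removes the peroxide made there, was not a DEG in any comparison.

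ECI2 (ENSSSCG00000001000), an isomerase that moves double bonds of unsaturated chains, was lower in WCOC than in C by -0.61 (adjusted p = 0.0427) and lower than in DOP by -0.61 (adjusted p = 0.0378). It ranged from 88.2 to 151 CPM in C, from 104 to 148 CPM in DOP and from 49.9 to 94.4 CPM in WCOC. The first call held in 3 of 10 fits without a library (those without C replicate 2 or 5 or WCOC replicate 2), and the second in 1 of 10 (that without WCOC replicate 2). With flow cell as a covariate the log2FC of ECI2 between WCOC and DOP was -1.14. DECR1, the reductase of the same list, was not a DEG in any comparison.

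PPARGC1A (ENSSSCG00000029275), the coactivator of mitochondrial genes, was lower in WCOC than in DOP by -2.29 (SE 0.70, adjusted p = 0.0438). It was at 0.201, 2.00, 0.71, 2.89 and 9.80 CPM in DOP replicates 1 to 5. WCOC libraries held 0.472 to 0.947 CPM and C libraries 0.431 to 0.987 CPM. Its 3 high DOP libraries are those with over 1000 CPM of ACTA1, and without the libraries rich in ACTA1 the log2FC was 0.44. The call held in 2 of 10 fits without a library, those without DOP replicate 1 or 3, and without DOP replicate 5 the log2FC was -1.18. ANGPTL4 (ENSSSCG00000013599), a target of PPAR that inhibits lipoprotein lipase, averaged 36.1 CPM in C, 56.8 CPM in DOP and 36.2 CPM in WCOC. Its libraries ranged from 24.6 to 46.1 CPM in C, 47.4 to 76.7 CPM in DOP and 25.6 to 47.1 CPM in WCOC. Neither ANGPTL4 nor PPARGC1A was a DEG against C by edgeR. The paper, which used DESeq2, reported PPARGC1A as overexpressed in DOP and listed ANGPTL4 among its genes of DOP against C. ANGPTL4 was lower in WCOC than in DOP by -0.65 (SE 0.18, adjusted p = 0.0303). That call ended without DOP replicate 4 or WCOC replicate 3, 4 or 5 (adjusted p up to 0.0688), and with flow cell as a covariate the log2FC was -0.20.

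No gene of carnitine transport, the matrix spiral, electron transfer or malonyl-CoA balance reached the DEG limits. Of these, ACADS (log2FC -0.44), ACAA2 (-0.58) and ETFA (-0.54), named after their values were seen, had an adjusted p under 0.05 between WCOC and DOP and a log2FC under the size limit. CRAT of the carnitine transferases, ECHS1 of the matrix spiral, ETFDH of electron transfer, RXRA of the transcriptional regulators and UCP3 of the PPAR-responsive genes were not DEGs in any comparison either. ACACA, which makes malonyl-CoA for fat synthesis, averaged 1905 CPM in C, 1872 CPM in DOP and 1316 CPM in WCOC and did not pass the test in any comparison. Its log2FC between WCOC and C was -0.53. The paper, which used DESeq2, reported ACACA as downregulated in WCOC against C.

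**Figure D5:**
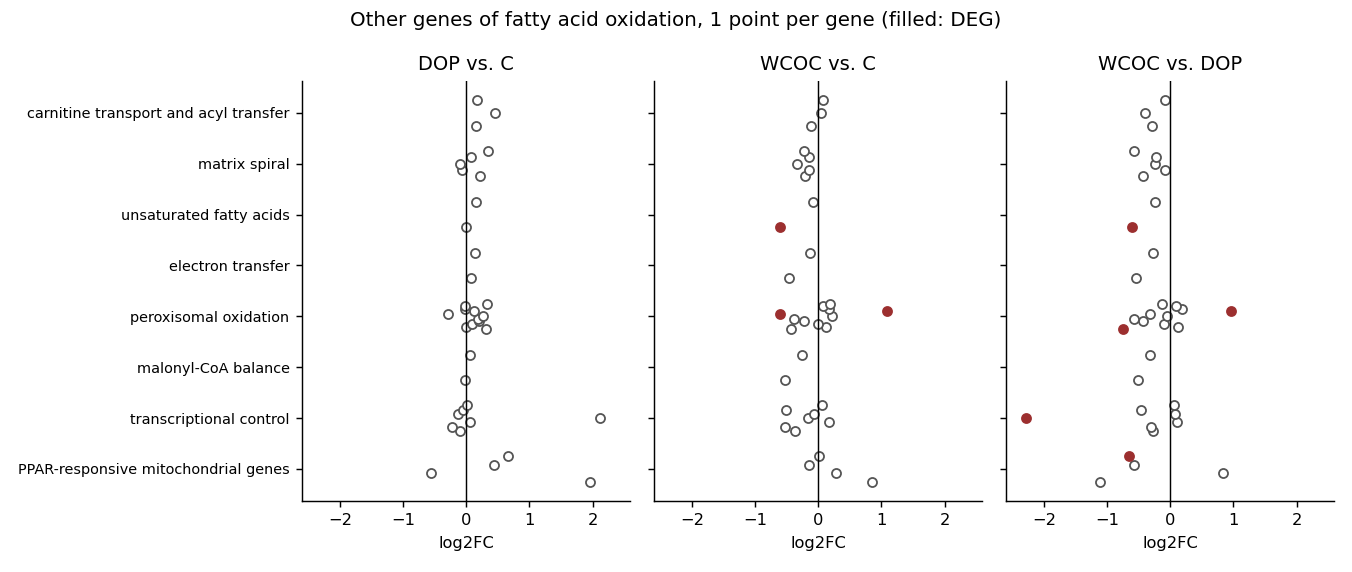
log2FC of 36 other genes of fatty acid oxidation in the 3 comparisons, 1 point per gene grouped by role and filled where the gene was a DEG. No point is filled between DOP and C, 3 are between WCOC and C, and 5 are between WCOC and DOP.

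The genes most like each CPT1 gene or other DEG were ranked by Pearson r of log2 CPM over the 15 libraries, as a description. The 3 highest of 11133 candidates are given for each, so selection alone favours high values. CPT1A was followed most closely by LAMP2 (0.89), FZD5 (0.88) and MYC (0.86). CPT1B was nearest to ACOT11 (0.96), RHOBTB1 (0.94) and CASP2 (0.91), where Spearman's rho was 0.90, 0.79 and 0.74. CPT1C was nearest to STRN4 (0.89), LFNG (0.87) and LXN (0.85). The genes nearest to ACADM were BCL6 (0.91), CAPZA2 (0.91) and NDUFS1 (0.90). ACADVL was nearest to UBE2V1 (0.95), GSTO1 (0.95) and NDUFAB1 (0.94), and HADHB to SDHD (0.98), FH (0.97) and MMADHC (0.95). The points share libraries, diets and flow cells.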

How the data were processed

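RNA of backfat from 15 pigs was sequenced as read pairs, 1 library per pig. According to the methods and the submitters' processing notes, the authors checked reads with FastQC and used HISAT2 for alignment to Sscrofa11.1 and HTSeq for counting by Ensembl gene. The deposited files hold raw counts, 1 file per library, with no scaling. The 5 summary lines of each file, 23.4% to 32.8% of its pairs, stayed out of all fits. Diet and replicate came from the labels.

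Counts were analysed with edgeR 4.0.16 in R 4.3.3: filterByExpr, TMM, 1 mean per diet over 15 libraries, the quasi-likelihood F test and Benjamini-Hochberg adjustment over 14918 genes, two-sided. The study's methods named DESeq2, which is an alternative here (1.42.0). log2 CPM used a prior count of 2. Relations used 100000 permutations. Scripts were tested on simulated data. The members and lists were chosen with earlier results of these data known. Named were the 9 genes, ACTA1, each DEG and the gene of each role list with the largest mean CPM (not corrected for length, so no ranking of levels), and the 3 genes most like each CPT1 gene or DEG among the 9. A few genes that this rule names are not reported here. Alternatives were scaling, filter, DESeq2, the diets fitted, replicate block, flow cell, muscle level, the size limit and leaving out libraries.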

Additional observations from a re-analysis of the deposited data

Results flagged for a closer look

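Within each diet the level of 10 genes (the 9 fatty acid oxidation genes and ACTA1) was checked for a library that stood far from the others, and 5 of the 30 groups of 5 libraries held one. Chance alone gives about 1 in 20 groups where values are normally distributed. CPM can be skewed, as for ACTA1, and the groups share libraries, so that rate is only a rough guide. CPT1A was at 58.6 CPM in C replicate 5, against 38.4 CPM in the next library, and that library is the only one of its diet on flow cell B. CPT1B was at 79.8 CPM in DOP replicate 5, against 46.6 CPM in the next, and ACTA1 was at 23994 CPM in the same library, against 6543 CPM. CPT1C was at 1.51 CPM in DOP replicate 3, the lowest of its diet, where the next was at 2.67 CPM. CPT1C was at 2.76 CPM in WCOC replicate 4, the highest of its diet, where the next was at 1.44 CPM. The cause of these values was not tested.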

How the results depend on the processing

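The DEG among the 9 genes between DOP and C (1) became 0 with no filter, with only those diets fitted, with the replicate block, with flow cell or muscle level as a covariate and without the 5 libraries over 1000 CPM of ACTA1 (an alternative chosen after seeing the data), and 0 to 1 over the fits without a library. Between WCOC and C the count rose from 0 to 1 with no limit on the log2FC. Between WCOC and DOP (4) it was 1 with the replicate block, 0 with flow cell, 2 with muscle level, 0 without the 5 libraries and 2 to 5 without a library, the lowest without DOP replicate 2 or WCOC replicate 3.

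The other pathway genes called were 3 with DESeq2 between DOP and C. Between WCOC and C (3) they were 1 with the block, 1 in flow cell A alone, 5 with no size limit, 0 without the 5 libraries and 1 to 3 without a library. Between WCOC and DOP (5) they were 1 with the block, 0 with flow cell, 2 with muscle level, 9 with no size limit, 0 without the 5 libraries and 1 to 7 without a library.

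Of all genes, 114 were DEGs between DOP and C, against 521 with DESeq2, 2 with only those diets, 0 with the block, 42 with muscle level, 0 without the 5 libraries and 0 to 200 without a library. Between WCOC and C 933 became 473 with the block, 486 in flow cell A alone, 1493 with no size limit, 354 without the 5 libraries and 468 to 1163 without a library. Between WCOC and DOP 1158 became 561 with the block, 1 with flow cell, 445 with muscle level, 1842 with no size limit, 92 without the 5 libraries and 639 to 1291 without a library.

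The sign of the log2FC turned for CPT1A with flow cell (-0.27 between DOP and C, 0.077 between WCOC and DOP). For CPT1B it turned between DOP and C without the 5 libraries (-0.088), between WCOC and C with flow cell (0.047), in flow cell A alone (0.038), with muscle level (0.050) and without C replicate 3 or 5 or WCOC replicate 2 or 3 (-0.099 to 0.046 over the fits without a library), and between WCOC and DOP with flow cell (0.045) or without the 5 libraries (0.039). It turned for ACADL between WCOC and C without WCOC replicate 4 (-0.15 to 0.023 over such fits) and for PPARGC1A between WCOC and DOP without the 5 libraries (0.44). Centred within diets, r with the muscle level was -0.15 for CPT1A, -0.13 for CPT2 and -0.35 for ACADL, and 0.56 for CPT1B and 0.49 for HADHA, past no threshold. The cause was not tested.

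Same-numbered libraries did not regularly deviate together over all tested genes (r from -0.51 to 0.34 over 15 pairs, 3 above 0.1). The replicate numbers thus gave no sign of a pairing, which this check cannot exclude. DESeq2 size factors and TMM without the muscle list moved the median log2FC of all genes by at most 0.00595. Counts of CPT1C were low in every library, which limits its precision.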
